A study of Homo sapiens with 6 samples.

Results

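H3K4me2, dimethylated lysine 4 of histone H3, was examined in 6 windows of chromosome 19. The cells were LNCaP, a prostate cancer cell line that responds to androgen. The windows were set by position to cover clusters of zinc finger genes, whose place in them was not checked. The members were the regions of the 3 deposited ChIP-seq peak lists whose summit, the position of the highest signal, fell on chr19 (hg19) at 11.7 to 12.8, 19.8 to 24.4, 36.7 to 38.3, 44.3 to 45.0, 52.3 to 54.0 or 56.6 to 59.1 Mb. They are called windows 1 to 6 in that order and span 12.2 Mb in all. The rule uses position alone. It found 667 of 99997 regions in the vehicle list, 704 of 128134 in the GSK 4 h list and 681 of 127189 in the GSK 24 h list.

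Cells of the vehicle group were given vehicle without GSK2879552, an inhibitor of the histone demethylase LSD1 (KDM1A). Cells of the other groups were given GSK2879552 for 4 h or for 24 h, per the labels together with the androgen DHT. All groups had first been kept for 3 days in medium with 5% CSS (charcoal-stripped serum), which is low in steroid hormones. The treatment protocol names the inhibitor without DHT, so effects of the inhibitor and of the androgen cannot be told apart. Each group had 2 replicates, and the authors made 1 list from both, so there is no replicate spread. No difference between lists could be tested between conditions, and every interval given is a 95% interval that covers counting error only.

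Zinc finger genes of this kind often code for KRAB zinc finger proteins, in which an array of C2H2 fingers reads DNA sequence and the KRAB domain recruits the corepressor TRIM28. Their best known role is the silencing of transposable elements. The genes arose by tandem duplication and lie beside each other, largely on chromosome 19. H3K4me2 marks promoters and enhancers, and LSD1 is an enzyme that removes it.

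No hg19 annotation was at hand, so no region was assigned to a gene and the gene content of the windows was not checked in that build. In RefSeq (GRCh38.p14), used for names and gene order alone, 261 of the 1451 protein-coding genes of chromosome 19 carry a zinc finger symbol of the families ZNF, ZFP, ZSCAN, ZIM, ZIK or ZKSCAN. By gene order, 5 unbroken runs hold at least 20 such genes each. ZNF737 to ZNF681 is the longest with 27 genes. ZNF627 to ZNF791 and ZNF565 to ZNF793 hold 24 each, ZNF772 to ZNF256 holds 23 and ZNF283 to ZNF180 holds 20. Shorter runs were also found, among them ZNF177 to ZNF846 with 8 genes. Which runs lie in the windows was not checked, so the rest of the chromosome may also hold zinc finger genes.

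Some promoters of these genes share sequence, which is shown here because H3K4me2 marks promoters and the rule did not use sequence. A RefSeq promoter of 300 bases, 250 before the start of the gene and 50 after it, was found for 226 of the 261 genes. The most widely shared word of 12 bases on either strand, picked from these same promoters, was CTGTCACTCAGG. It was present in 23 of the 226 promoters (10.2%, Wilson interval 6.88 to 14.8%), in 2 of 1284 promoters of other genes of chromosome 19 (0.156%) and in 37 of all 27305 promoters (0.136%). All 23 matches began upstream of the gene start, between 130 and 69 bases before it. Of the 23 genes, 19 lie in only 2 of the runs, ZNF737 to ZNF681 and ZNF627 to ZNF791. The promoters had a median GC content of 60% and a median of 20 CpG dinucleotides, against 63.3% and 19 for other genes of the chromosome and 58.0% and 13 for all genes. The promoters of ZNF844, from the run ZNF627 to ZNF791, and of ZNF85 and ZNF91, from the run ZNF737 to ZNF681, are printed 5′ to 3′ with the shared word in capitals. None was matched to a region of the lists.
ZNF844: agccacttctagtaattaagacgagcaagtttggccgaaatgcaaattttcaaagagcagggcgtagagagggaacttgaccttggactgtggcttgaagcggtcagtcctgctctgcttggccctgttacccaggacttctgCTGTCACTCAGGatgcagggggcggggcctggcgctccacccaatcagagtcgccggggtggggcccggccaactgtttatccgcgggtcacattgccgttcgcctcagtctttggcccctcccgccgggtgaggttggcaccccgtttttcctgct
ZNF85: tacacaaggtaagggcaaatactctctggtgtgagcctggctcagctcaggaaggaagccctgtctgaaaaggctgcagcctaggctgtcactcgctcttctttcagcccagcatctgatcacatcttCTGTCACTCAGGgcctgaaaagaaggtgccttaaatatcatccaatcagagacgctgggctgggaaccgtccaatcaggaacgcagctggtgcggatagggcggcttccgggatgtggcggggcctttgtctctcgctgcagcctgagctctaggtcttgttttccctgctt
ZNF91: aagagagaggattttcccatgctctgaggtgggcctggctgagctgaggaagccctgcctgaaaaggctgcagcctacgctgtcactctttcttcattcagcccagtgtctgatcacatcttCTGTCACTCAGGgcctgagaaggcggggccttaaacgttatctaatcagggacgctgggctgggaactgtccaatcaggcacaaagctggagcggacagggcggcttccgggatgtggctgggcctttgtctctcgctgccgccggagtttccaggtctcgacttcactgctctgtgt

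The number of H3K4me2 regions in the windows was nearly the same in the 3 lists. Against vehicle the ratio at 4 h was 1.06 (0.948 to 1.18) and at 24 h 1.02 (0.916 to 1.14), and both intervals include a ratio of 1. On the rest of chromosome 19 the counts were 3173, 3461 and 3354, with ratios of 1.09 (1.04 to 1.14) and 1.06 (1.01 to 1.11). On the other chromosomes the ratios were 1.29 (1.28 to 1.30) and 1.28 (1.27 to 1.29). With each list held to its 99997 strongest regions by p-value, the windows held 667, 618 and 592 regions and both ratios turned below 1, at 0.927 and 0.888. The depth, read from the deposited values as tags per kb of the caller's genome, was 9.43 for vehicle, 10.1 for GSK 4 h and 8.98 for GSK 24 h.

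By window, and in the order vehicle, 4 h, 24 h, there were 74, 72 and 76 regions in window 1 and 152, 168 and 153 in window 2. Window 3 held 112, 114 and 116 regions and window 4 held 44, 53 and 46. Window 5 held 104, 106 and 101, and window 6 held 181, 191 and 189. No window differed in number beyond counting error in either comparison. The widest move was in window 4 at 4 h, where the ratio of 1.20 had an interval of 0.792 to 1.84.

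The windows were less densely marked than the remainder of the chromosome, and window 2 was the least dense. In vehicle the windows held 54.7 regions per Mb (50.6 to 59) and the rest of the chromosome 67.6 (65.3 to 70.0). Window 2 held 33.0 per Mb in vehicle, 36.5 in GSK 4 h and 33.3 in GSK 24 h. The other 5 windows ranged from 61.2 to 72.4 per Mb in vehicle, and jointly they held 67.8 per Mb (62.0 to 73.9). That count includes the 17 and 15 vehicle regions of 2 evenly spaced stretches of window 3, described below. Without them the density is lower, and it was not computed. The length of the rest of the chromosome, 46.9 Mb, was taken up to the last region, with no unassembled sequence left out. Whether the other 5 windows match the rest of the chromosome was therefore not settled. The covered length was 19.7 kb per Mb in window 2 against 57.8 kb per Mb in window 6, the highest.

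**Figure D1:**
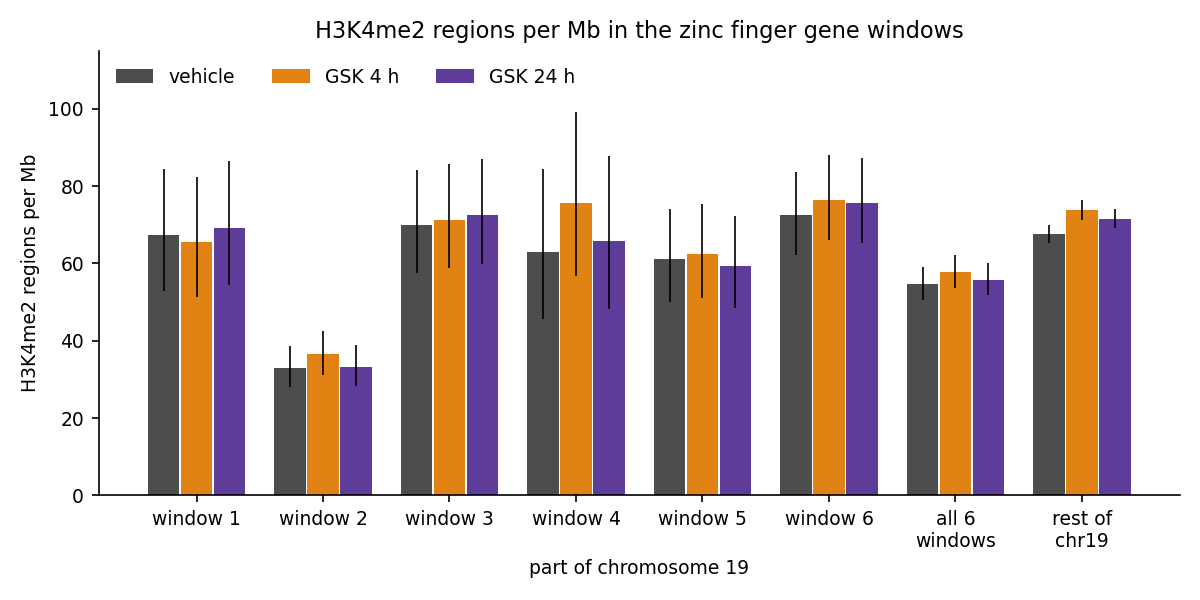
Regions per Mb (vertical axis) in each of the 6 windows, in all windows together and in the rest of chromosome 19, with vehicle in grey, GSK 4 h in orange and GSK 24 h in purple. Error bars are exact Poisson 95% intervals, and window 2 stands below all others in the 3 lists, at 33.0 to 36.5 regions per Mb.

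Long stretches without a region were a feature of window 2. It had 9 gaps of over 100 kb between neighbouring summits in vehicle and 7 in each GSK list, which together took up 33.4%, 31.8% and 31.8% of its length. The longest in vehicle was 356 kb, from 22444571 to 22800989. In the GSK lists the longest, at 368 kb for 4 h and 367 kb for 24 h, lay further along, from 22817378 and 22817751 onwards. In the other windows no list had more than 1 gap of that size, and windows 1, 3 and 4 had none.

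The strength of a region was taken as its summit pileup, the number of DNA fragments that cover the summit, recovered from the fold enrichment and p-value of each record. The median pileup of the members was 43 in vehicle, 43.5 in GSK 4 h and 40 in GSK 24 h. It was 45, 46 and 42 on the rest of chromosome 19 and 22, 21 and 21 on the other chromosomes. The medians of the windows were thus close to those of the rest of the chromosome, but single windows were not. The medians were lower in window 2, at 21, 19.5 and 20 fragments, and in window 4, at 18, 24 and 21.5. Window 3 had the highest median in vehicle, 60.5 (51 to 72), against 50 in GSK 4 h and 42.5 in GSK 24 h. Of its 112 vehicle regions, 17 and 15 lay in 2 evenly spaced stretches described below, each with a median of 124. The stretches entered these medians, and their own medians were 50 and 45 in GSK 4 h and 32.5 and 31 in GSK 24 h. Window 6 had medians of 56, 63 and 57.

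The tallest members were found in the vehicle list. A −log10 q-value of 100 or more was reached by 10 members in vehicle and by none in GSK 4 h or GSK 24 h. A summit of at least 64 times the genome background of its list was reached by 26 members in vehicle (3.90%, 2.67 to 5.65%), 2 in GSK 4 h (0.284%, 0.078 to 1.03%) and 4 in GSK 24 h (0.587%, 0.229 to 1.5%). On the rest of the chromosome the corresponding numbers were 410 (12.9%, 11.8 to 14.1%), 156 (4.51%, 3.87 to 5.25%) and 62 (1.85%, 1.44 to 2.36%). In each list such tall summits were thus a smaller share in the windows than on the rest of the chromosome, and in both places they were fewer in the GSK lists. On the other chromosomes the shares were 6.92%, 1.48% and 0.373%, so the fall was not particular to chromosome 19. A −log10 q-value of 100 or more was reached by 1.5% of vehicle members, against 8.73% of vehicle regions on the rest of the chromosome. On the other chromosomes it was reached by 5.49% of regions in vehicle, 0.097% in GSK 4 h and 0.053% in GSK 24 h. Median lengths were 613, 599.5 and 652 bp.

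Most members were found in more than one list. Of the vehicle members, 87.7% (85.0 to 90%) shared at least 1 bp with a region of the GSK 4 h list, and 87.6% (84.8 to 89.8%) did so with the GSK 24 h list. In neither GSK list were 54 vehicle members (8.10%, 6.26 to 10.4%), against 8.27% of all vehicle regions. Absent from the vehicle list were 133 GSK 4 h members (18.9%, 16.2 to 21.9%), against 33.0% of all GSK 4 h regions. For GSK 24 h they were 94 (13.8%, 11.4 to 16.6%), against 32.0% of all. On the rest of chromosome 19 these 2 shares were 19.4% and 16.5%, so the low share of regions absent from vehicle was common to the chromosome.

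Overlap followed the height of the summit. Of the GSK 4 h members under 15 fragments, 35.0% (26.4 to 44.6%) overlapped a vehicle region, against 98.2% (95.5 to 99.3%) of those with 60 or more. For GSK 24 h the shares were 45.2% (35.4 to 55.3%) and 98.6% (95.8 to 99.5%). At the same heights the rest of the chromosome gave 32.5% and 95.4% for GSK 4 h and 46.2% and 96.6% for GSK 24 h. Among the windows, window 2, with many low summits, had the lowest shares. Of its GSK 4 h regions 70.2% (62.9 to 76.6%) were in vehicle, and 34 of its 168 (20.2%, 14.9 to 26.9%) were in no other list. On the rest of the chromosome these shares were 80.6% and 10.9%, and on the other chromosomes 66.5% and 17.4%. Window 2 thus differed from the rest of the chromosome, while both of its intervals include the values of the other chromosomes.

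**Figure D2:**
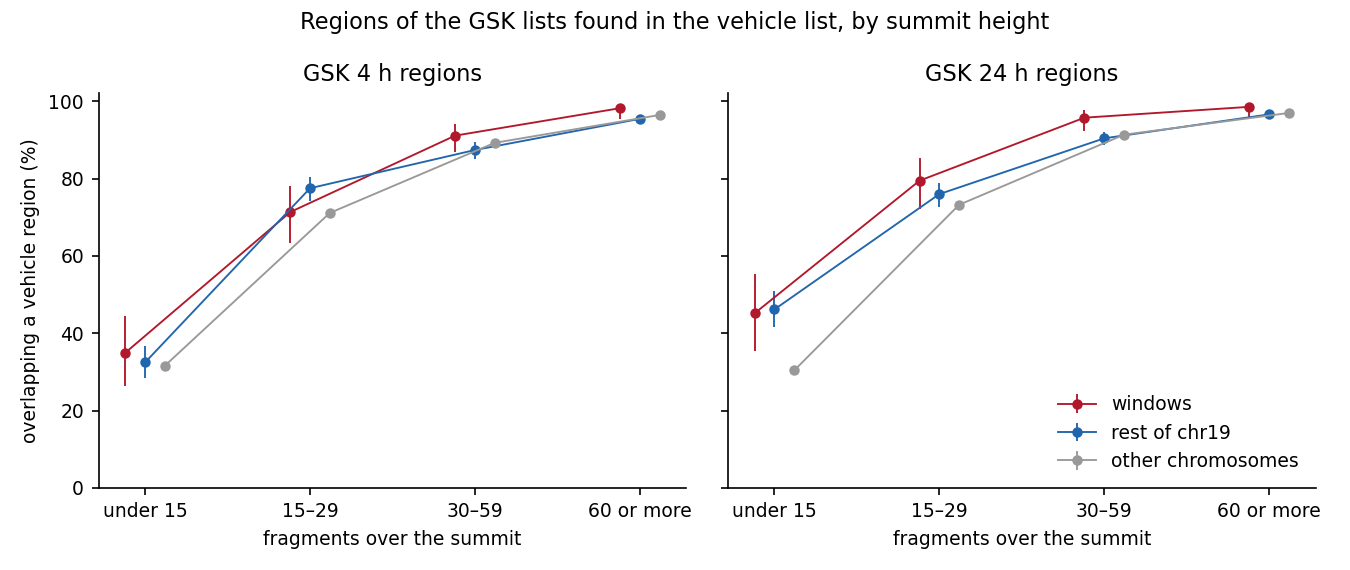
Percent of GSK 4 h (left) and GSK 24 h (right) regions that overlap a vehicle region (vertical axis), by fragments over the summit (horizontal axis), for the windows in red, the rest of chromosome 19 in blue and other chromosomes in grey. Error bars are Wilson 95% intervals, and in the windows the share rises from 35.0% to 98.2% for GSK 4 h and from 45.2% to 98.6% for GSK 24 h.

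Joined across the lists, the members made 770 distinct regions. All 3 lists held 504 of them (65.5%, 62.0 to 68.7%), against 63.6% on the rest of the chromosome and 47.4% on the other chromosomes. GSK 4 h alone held 84 (10.9%), vehicle alone 54 (7.01%) and GSK 24 h alone 44 (5.71%), while 41 (5.32%) were in both GSK lists without vehicle. In that order the shares were 10.0%, 7.63%, 6.54% and 6.48% on the rest of the chromosome. On the other chromosomes they were 14.7%, 5.38%, 14.5% and 11.2%. Another 23 (2.99%) were in vehicle and GSK 4 h and 20 (2.60%) in vehicle and GSK 24 h, against 2.97% and 3.88% on the other chromosomes. Members of 1 list were low. Their median pileup was 14.5 in vehicle, 14 in GSK 4 h and 12 in GSK 24 h, against 46, 48 and 44 for members shared with another list.

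Most of the highest members of 1 list lay close beside regions of the others. The highest vehicle-only region, chr19:59069869-59070288 in window 6, had 168 fragments over its summit, and the nearest regions were 0.353 kb away in GSK 4 h and 0.432 kb away in GSK 24 h. In the same crowded place the highest 2 regions of both GSK lists without vehicle were found. At chr19:59071148-59071661, 0.860 kb from the nearest vehicle region, there were 90 fragments in GSK 4 h and 87 in GSK 24 h. At chr19:59070641-59070944, 0.353 kb from it, there were 84 and 71. The surroundings were dense there, with 2388 tags in 10 kb around the vehicle summit. The highest GSK 24 h-only region, chr19:23436804-23437418 in window 2, stood apart with 36 fragments, 3.65 kb from the nearest vehicle region and 3.59 kb from the nearest GSK 4 h region.

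Change in height was measured in the 383 members that matched 1 to 1 in the 3 lists, of 53781 such regions in the genome. Heights were divided by the genome background of their list, and ratios are on the log2 scale. Both GSK lists were set against the same vehicle list. The members' median ratio at 4 h was 0.28 (0.20 to 0.37) and at 24 h 0.15 (0.12 to 0.18). The median of all matched regions was itself 0.25 and 0.15, so relative to it the members stood at 0.03 and 0.00. The rest of chromosome 19 had medians of 0.20 at 4 h and 0.01 at 24 h. At least 2-fold lower were 22 members (5.74%, 3.82 to 8.54%) at 4 h and 29 (7.57%, 5.32 to 10.7%) at 24 h, against 5.98% and 7.83% of all matched regions. At least 2-fold higher were 15 (3.92%) at 4 h and 4 (1.04%) at 24 h, against 4.95% and 2.51%. Relative to the median of all matched regions, 27 and 31 members were at least 2-fold lower, against 8.08% and 8.69% of all matched regions, and 5 and 2 were at least 2-fold higher, against 1.29% and 1.0%. In number the members were therefore close to the genome, while the places where they fell were uneven. Of the members at least 2-fold lower, 14 of 22 at 4 h and 18 of 29 at 24 h lay in 2 short stretches of window 3. The intervals of the shares count these neighbouring regions as separate observations.

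**Figure D3:**
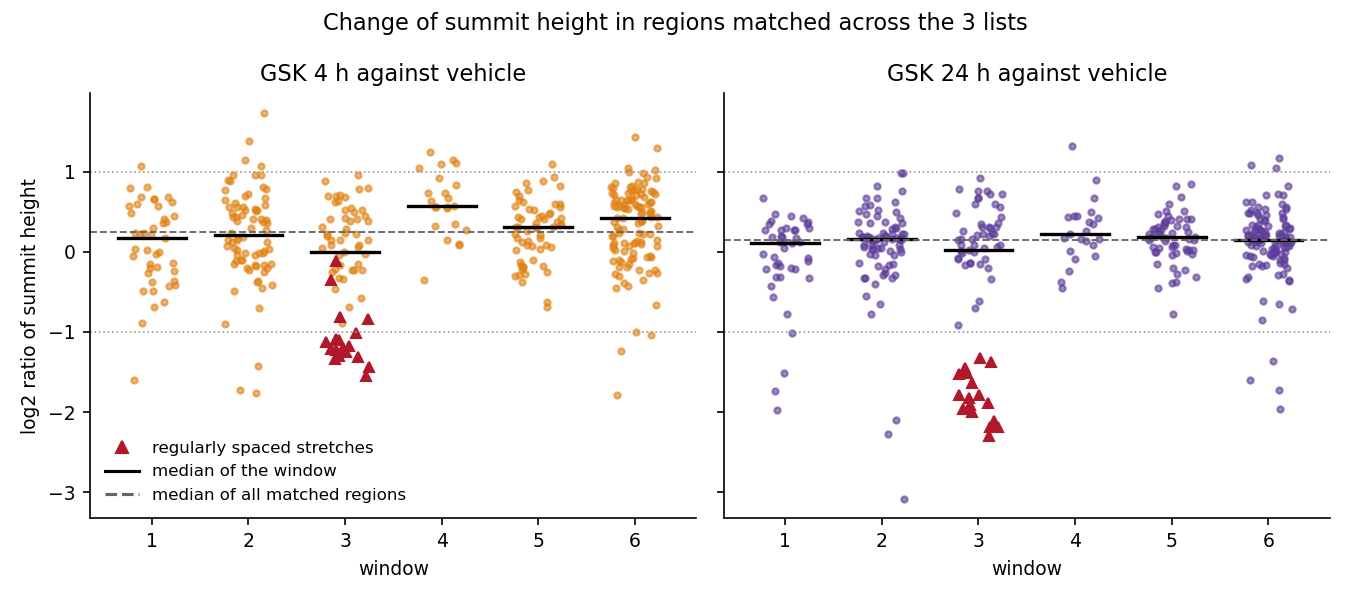
Log2 ratio of summit height to vehicle (vertical axis) of each matched member by window (horizontal axis), for GSK 4 h on the left and GSK 24 h on the right. Red triangles are the 18 members in the regularly spaced stretches of window 3, black bars are window medians, the dashed line is the median of all matched regions and dotted lines mark 2-fold. The triangles make up all 18 members of window 3 that were at least 2-fold lower at 24 h.

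Window 3 held the largest group of lower regions. Of its 67 matched members, 14 (20.9%, 12.9 to 32.1%) were at least 2-fold lower at 4 h and 18 (26.9%, 17.7 to 38.5%) at 24 h. Every one of them lay in 1 of 2 stretches where the summits followed each other at a nearly constant distance. These stretches were noticed in the data, and the values that follow describe them without a test. The sequence under them, and whether reads could be placed there uniquely, was not examined. Whether their summits mark separate sites was therefore not tested. The intervals above count each summit as separate and may be too narrow. Outside them, 0 of the 49 matched members of window 3 were 2-fold lower or higher at either time, which allows a share of up to 6.12%, and their medians were 0.22 and 0.20.

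Stretch 1 ran from chr19:36759888 to chr19:36800400, 40.5 kb, with 17 vehicle summits at a period of 2532 bp and no period skipped. The summit pileups were 77 to 145 in vehicle with a median of 124. In GSK 4 h 18 summits had 32 to 59 fragments with a median of 50, and in GSK 24 h 16 summits had 26 to 36 with a median of 32.5. The ranges of vehicle and of either GSK list did not overlap. The tags in the 10 kb around a summit had medians of 1092, 850 and 503. That count includes the summit and its neighbours, so the level between summits was not measured apart. The median fold enrichment over those surroundings was 5.38, 3.07 and 2.88.

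Stretch 2 ran from chr19:37760130 to chr19:37792900, 32.8 kb, with 15 vehicle summits, the last 8 of them at a period of 2518 bp. Its pileups had a median of 124 (45 to 205) in vehicle, 45 (25 to 105) in 16 GSK 4 h summits and 31 (27 to 67) in 13 GSK 24 h summits. Here the ranges of the lists overlapped. The 10 kb surroundings had medians of 1013, 869 and 454 tags. The median fold enrichment over those surroundings was 5.27, 3.04 and 2.96. Over both stretches the 18 matched members had a median log2 ratio of −1.19 (−1.31 to −1.01) at 4 h and −1.85 (−2.00 to −1.53) at 24 h, which is −1.44 and −2.00 relative to all matched regions. The intervals count neighbouring summits as separate observations, which was not tested, so they may be too narrow. By height over the genome background, at least 2-fold lower were 14 of the 18 at 4 h and 18 of the 18 at 24 h. The median fold enrichment over the surroundings fell less than 2-fold in both stretches at both times. The vehicle-only region chr19:37764996-37765263, with 100 fragments, also lay in stretch 2.

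**Figure D4:**
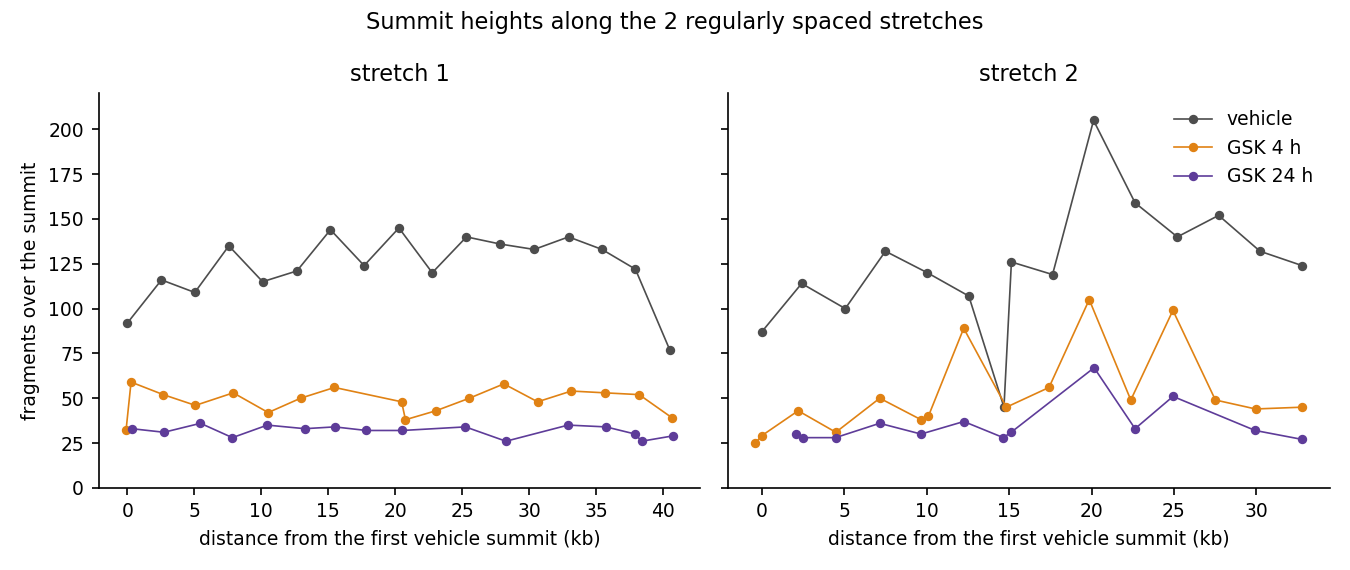
Fragments over each summit (vertical axis) against the distance from the first vehicle summit in kb (horizontal axis) in stretch 1 and stretch 2 of window 3, with vehicle in grey, GSK 4 h in orange and GSK 24 h in purple. In stretch 1 the vehicle summits lie at 77 to 145 fragments, above all GSK 4 h (32 to 59) and GSK 24 h (26 to 36) summits.

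Regular spacing of this kind was rare. Runs of at least 6 neighbouring summits, each within 60 bp of a whole number of periods from the next, numbered 8 in the vehicle list over the genome, and 2 of them were those of window 3. Another 2 lay on chromosome 19 outside the windows, with periods of 5346 and 5373 bp. The GSK 4 h list held 1 such run, of 8 summits at 2522 bp within stretch 1, and the GSK 24 h list held 1, on chromosome 1.

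Apart from the stretches, 11 matched members were at least 2-fold lower at 24 h, of 365 (3.01%, 1.69 to 5.32%), against 7.83% of all matched regions. At 4 h there were 8 (2.19%, 1.11 to 4.26%), against 5.98%. Both shares were below those of all matched regions. The stretches were left out after their values were seen, so a lower share is in part built in. The 11 lay in windows 1, 2 and 6, with 4, 3 and 4 members, and in none of windows 3 to 5. They were tall in vehicle, at 50 to 315 fragments, and 9 of the 11 had 100 or more. The lowest ratio of any member was at chr19:21768844-21769797, the strongest region of window 2, meaning the one with the largest sum of fragments over the 3 lists. It had 161 fragments in vehicle, 43 in GSK 4 h and 18 in GSK 24 h, log2 ratios of −1.76 (−2.28 to −1.26) and −3.08 (−3.87 to −2.37). Its fold enrichment over the surroundings was 18.6, 9.59 and 5.92, and its 10 kb surroundings held 348, 193 and 101 tags.

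A pair of other members of window 2 were also low at both times. At chr19:22444366-22444907 there were 51, 14 and 10 fragments, a log2 ratio of −2.27 (−3.41 to −1.27) at 24 h. At chr19:22805581-22806594 there were 104, 35 and 23 fragments, a log2 ratio of −2.09 (−2.81 to −1.43) at 24 h. The former holds the vehicle summit at which the longest gap of the window begins. There the surroundings were at the genome-wide floor of the caller in the 3 lists, so a difference between them could not be measured.

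In window 1 the strongest region, chr19:12162440-12164226, had 218, 106 and 72 fragments, a log2 ratio of −1.51 (−1.92 to −1.12) at 24 h. Further on, chr19:12175530-12176868 had 201, 60 and 57 fragments, a log2 ratio of −1.73 (−2.18 to −1.30) at 24 h. The latter was thus about as low at 4 h as at 24 h. A weaker region, chr19:12305632-12306409, had 50, 34 and 12 fragments.

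In window 6 the strongest region, chr19:58907012-58908481, had 315, 139 and 116 fragments, log2 ratios of −1.03 (−1.33 to −0.74) and −1.36 (−1.68 to −1.05). Its fold enrichment over the surroundings was 8.73, 6.20 and 7.09, and its 10 kb surroundings held 1592, 1160 and 708 tags. The region chr19:56616740-56617612 had 305, 80 and 95 fragments, and so was no lower at 24 h than at 4 h. The region chr19:58174928-58176371 had 245, 94 and 70 fragments, and chr19:58555494-58556571 had 111, 50 and 27.

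The tall members were not lower everywhere. Among the 23 matched members outside the stretches with at least 100 vehicle fragments, 9 (39.1%, 22.2 to 59.2%) were 2-fold lower at 24 h and the median ratio was −0.34. On the rest of the chromosome 168 of 321 such regions (52.3%, 46.9 to 57.7%) were, with a median of −1.05. Since these were picked for a high vehicle value, a lower ratio is in part built in, and the shares are given as a description. The strongest region of window 3, chr19:36748038-36749262, had 195, 118 and 98 fragments, a log2 ratio of −0.91 (−1.27 to −0.55) at 24 h. In window 5 the region tallest in vehicle, chr19:53660921-53662253, had 141, 105 and 107 fragments, log2 ratios of −0.28 (−0.66 to 0.10) at 4 h and −0.31 (−0.69 to 0.06) at 24 h, and both intervals include 0. The strongest by the sum over the lists, chr19:53192399-53193733, had 110, 146 and 121 fragments, and its GSK values entered that choice.

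In window 4 most regions were higher at 4 h. The median ratio of its 23 matched members was 0.58 (0.35 to 0.84) at 4 h, 0.33 above the median of all matched regions, and 0.22 (0.08 to 0.44) at 24 h. At 4 h 22 of the 23 were not below vehicle, against 36243 of all 53781 matched regions. At least 2-fold higher were 5 (21.7%, 9.66 to 41.9%), against 4.95% of all matched regions. Relative to the median of all matched regions, 4 of the 23 were below it and 1 was at least 2-fold higher. That region was its highest at 24 h, chr19:44330928-44331435, with 14, 30 and 33 fragments, log2 ratios of 1.25 (0.29 to 2.28) and 1.32 (0.38 to 2.34). The strongest region of the window, chr19:44405036-44406734, had 32, 49 and 34 fragments, for the taller summit where a list held 2, and it is strongest by the sum over the lists, GSK values included. The region tallest in vehicle, chr19:44598745-44600205, had 44, 31 and 35 fragments, log2 ratios of −0.36 (−1.07 to 0.34) and −0.25 (−0.93 to 0.43). Window 6 had a median of 0.42 (0.24 to 0.55) at 4 h and 0.15 (0.11 to 0.21) at 24 h.

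At 24 h 4 members were at least 2-fold higher, 1 in window 4 and 3 in window 6. Besides the region of window 4, the highest ratios belonged to chr19:57442820-57443282 in window 6, with 17, 12 and 36 fragments and a log2 ratio of 1.17 (0.30 to 2.09), and chr19:57467454-57468652, with 11, 18 and 22 fragments and a log2 ratio of 1.08 (−0.02 to 2.28). The interval of the latter includes 0.

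Taken over all windows, regions stood in pairs more often than elsewhere, though the shares of windows 2 and 3 were near those of the rest of the chromosome. Summits within 2 kb of the next were joined into sites, which gave 435 sites in vehicle, 454 in GSK 4 h and 436 in GSK 24 h. Sites of exactly 2 regions made up 37.7% (33.3 to 42.3%), 36.6% (32.3 to 41.1%) and 39.9% (35.4 to 44.6%) of them. On the rest of chromosome 19 the shares were 24.1% (22.3 to 25.9%), 26% (24.3 to 27.8%) and 28.4% (26.6 to 30.3%), and on the other chromosomes 19.6%, 22.1% and 21.7%. The intervals of the windows lay above those of the rest of the chromosome in the 3 lists. The median distance between neighbouring summits of a site was 1070, 929 and 1060 bp.

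**Figure D5:**
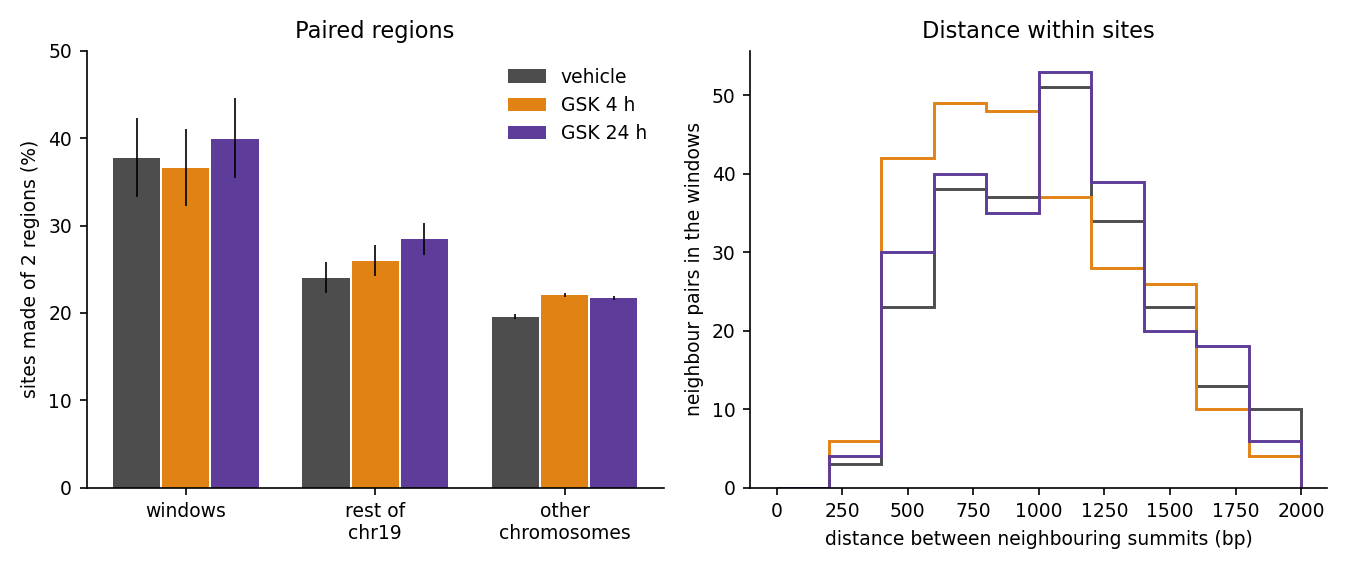
On the left, percent of sites made of exactly 2 regions (vertical axis, Wilson 95% intervals) in the windows, the rest of chromosome 19 and other chromosomes, with vehicle in grey, GSK 4 h in orange and GSK 24 h in purple. On the right, the number of neighbour pairs in the windows (vertical axis) by the distance between their summits in bp (horizontal axis), with medians of 1070, 929 and 1060 bp.

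Pairing varied from window to window, on few sites each. In window 1 sites of 2 regions made up 54.3% of the sites in vehicle, 34.0% in GSK 4 h and 40.0% in GSK 24 h, on 45 to 47 sites. In window 6 they were 41.1%, 43.0% and 53.1%, and in window 4 48.0%, 53.8% and 55.6% of 25 to 27 sites. Window 2 had 28.4%, 28.3% and 26.3%, and there most sites were single regions (66.1% in vehicle). Window 3 had 27.6% (18.8 to 38.6%), 28.9% and 30.1%. Window 5 had 43.3%, 43.7% and 45.3%. The sites of the windows followed each other at a median distance of 21.6, 20.4 and 20.4 kb.

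Matched members differed little in place and length. The median shift of the summit from vehicle was 90 bp (74 to 107) at 4 h and 71 bp (60 to 83) at 24 h, and 53.3% and 62.7% of summits lay within 100 bp of the vehicle summit. The median ratio of length was 1.03 at 4 h and 1.02 at 24 h, against 1.05 and 1.10 on the other chromosomes. The longest member was a GSK 4 h region of 2438 bp within chr19:11907999-11910629 in window 1, where vehicle and GSK 24 h each had 2 regions. The longest vehicle member, of 2132 bp within chr19:58512891-58515081 in window 6, faced 2 regions in each GSK list. The longest GSK 24 h member, of 2353 bp within chr19:56601881-56604391 in window 6, faced 3 vehicle regions and 1 GSK 4 h region.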

How the data were processed

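LNCaP cells were profiled for H3K4me2 by ChIP-seq in 6 samples, 2 in each of the vehicle, 4 h and 24 h groups. Per the submitters' processing notes, BWA 0.7.2-r351, SAMtools 0.1.18 and MACS2 2.0.10.20131216 were used with hg19. For each group the authors deposited a single list of peaks from the 2 replicates combined. Each record carries a display score, a fold enrichment (a ratio over background), −log10 p-value and −log10 q-value as deposited by the authors, and the offset of the summit, a distance in bp. The lists were not normalised to each other.

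Analysis was limited to chromosomes 1 to 22, X and Y. A whole-number summit pileup was recovered from fold and p-value, with a tolerance of 0.001 in −log10 p, in 99.998% of vehicle records, in 100% of GSK records and in every member. The step was tested on simulated data. Background, tags in 10 kb and depth came from the same fit and the shortest record (221, 186 and 219 bp), taken as the fragment length. No input control entered these values. The highest pileups (434, 364 and 431) lie just under the ceiling set by keeping 1 tag per position and strand, so very tall summits are compressed. Height is pileup over genome background. Regions of different lists that had 1 bp or more in common were taken as shared.

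The members and lists were chosen with earlier results of these data known. Named regions were the strongest of each window (largest summed pileup), the highest of each list class, those with the 3 lowest and 3 highest 24 h ratios at 20 or more fragments, and the longest of each list. The regularly spaced stretches, the further lower regions outside them and the regions tallest in vehicle were picked after their values were seen. Stretch 2 joins to a run of even spacing the neighbours within 1.1 periods. Shares have Wilson, medians order-statistic and counts exact Poisson or binomial intervals. With 1 list per group, no test was run. No genome of the build was used, so LNCaP markers and region sequences were not checked. Python 3.11.15, pandas 2.3.3 and scipy 1.17.1 were used.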

Additional observations from a re-analysis of the deposited data

How the results depend on the processing

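No paired analysis was possible because the replicates of a group share 1 list, which also meant that no replicate could be left out. Of 106 recomputed values for 21 results, 68 stayed within the counting interval of the reported value, or within 1.5 times a count, and 38 moved. No value whose interval excluded 0 changed sign. The log2 ratios of the number of regions, whose intervals include 0 at 0.078 for 4 h and 0.030 for 24 h, turned negative with lists of equal length and at a −log10 q-value of at least 30, and that for 24 h also at 5 and 10.

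With lists of equal length the log2 ratio of the number of regions was −0.11 at 4 h and −0.17 at 24 h. The overlap of vehicle members was then 84.0% with GSK 4 h and 81.7% with GSK 24 h, and that of GSK members with vehicle 87.7% at 4 h and 91.6% at 24 h. Fewer GSK regions enter by construction. At a −log10 q-value of at least 30, chosen after seeing the data, the log2 ratio of number for GSK 24 h was −0.25. In the same order the overlap was 81.1%, 81.3%, 71.6% and 78.6% with 50% of the region required and 68.2%, 72.4%, 64.6% and 70.9% with 50% of both regions required. It was 83.8% for vehicle in GSK 24 h at a −log10 q-value of at least 10.

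Scaled by all matched regions, the median log2 ratio was 0.035 at 4 h and 0.00 at 24 h, and 5 and 2 members were at least 2-fold higher. With the deposited fold enrichment in place of height, the medians of the 383 members were 0.079 and 0.0092, against 0.081 and −0.0078 for all matched regions. Of the 383, 6 and 14 were 2-fold lower and 2 and 0 higher. At a −log10 q-value of at least 10, 7 and 11 of 278 were lower and 3 and 0 higher. With summits required within 200 bp, 9 and 9 of 326 were lower. For fold enrichment, this q-value and this summit distance, the shares of all matched regions past 2-fold were not computed. Whether these members were more or fewer than the genome share was thus not tested. Windows narrowed by 100 kb at each edge left 11 and 18 of 326 lower. These windows had lost 10 of the 11 matched members of stretch 1 and chr19:56616740-56617612 of window 6. Leaving out both stretches, a step chosen after seeing the data, left 8 and 11 of 365.

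With summits joined within 1500 bp, also chosen after seeing the data, sites of 2 regions made up 31.5% in vehicle and 33.1% in GSK 24 h. Windows widened by 100 kb changed no result they were run on. Causes of the moved values not named here were not tested. Low summits limit what can be seen, since under 15 fragments a region missing from another list may lie just below its threshold.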

Other observations

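Unplaced sequence assigned to chromosome 19 held 14 regions in vehicle, 15 in GSK 4 h and 17 in GSK 24 h. These lie outside the windows and entered no comparison.

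Besides the 2 stretches of window 3, the vehicle list held 6 runs of evenly spaced summits. The pair on chromosome 19 outside the windows had 7 summits at 5346 bp (chr19:50608366-50640443) and 6 at 5373 bp (chr19:48434073-48460938). The others had 10 summits at 2234 bp on chromosome 1, 8 at 3293 bp on chromosome 4, 6 at 5440 bp on chromosome 9 and 14 at 2983 bp on chromosome X. The run in the GSK 24 h list, on chromosome 1, had 8 summits at 2233 bp.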
